A study of Mus musculus with 6 samples.

Results

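The expression of 9 mouse genes of vitamin A metabolism was followed in larger proximal airways: the uptake receptor Stra6, the plasma carrier Rbp4, the retinol dehydrogenase Rdh10, the retinal reductase Dhrs3, the aldehyde dehydrogenases Aldh1a1, Aldh1a2, Aldh1a3 and Aldh1a7, and the nuclear receptor Rarb. They were chosen by name, with earlier results of these data known. Their array rows are those whose annotation gives exactly 1 symbol equal to the gene. All 9 were found, each with 1 row, among 19938 genes with a symbol of their own. The mutant group was labelled Scgb1a1-cre:Foxp1flox/flox:Foxp4flox/flox and the control group Scgb1a1-Cre, with 3 arrays each, so both groups carried the Cre driver and the mutants alone carried the floxed alleles of the forkhead genes Foxp1 and Foxp4. All mice were 9 weeks old, of mixed C57BL/6 and 129X1 strain, and the labels name no treatment of these samples. The airways were dissected with forceps and scissors from stained frozen sections, with 1 Affymetrix array for each sample. The driver is active in secretory club cells of the airway epithelium, and which cells of the airway wall had lost the genes was not measured here. In such whole-tissue samples, fewer cells of a type and less RNA per cell cannot be told apart.

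Vitamin A travels in blood as retinol bound to Rbp4, and Stra6 is a membrane receptor through which some cells take it up. Inside the cell Rdh10 oxidises retinol to retinal, Dhrs3 turns retinal back into retinol, and Aldh1a1, Aldh1a2 and Aldh1a3 oxidise retinal to retinoic acid. Aldh1a7 was listed here by its family alone and not for this step. Retinoic acid binds RAR and RXR receptors on DNA, where it switches genes such as Rarb itself, and enzymes of the Cyp26 family break it down. In airways retinoic acid is known for keeping the epithelium mucociliary instead of squamous, and Aldh1a1 and Aldh1a7 are abundant in club cells of mice.

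RefSeq windows of 300 bases, 250 before to 50 after each start site in GRCm38.p6, were matched by symbol for 7 of the 9 genes, with 14 windows in all. The Rarb window (chr14:16575427-16575726, minus strand) is shown because it holds the kind of element through which retinoic acid receptors act. Its capitals mark a direct repeat from 53 to 37 bases before the start.
Rarb: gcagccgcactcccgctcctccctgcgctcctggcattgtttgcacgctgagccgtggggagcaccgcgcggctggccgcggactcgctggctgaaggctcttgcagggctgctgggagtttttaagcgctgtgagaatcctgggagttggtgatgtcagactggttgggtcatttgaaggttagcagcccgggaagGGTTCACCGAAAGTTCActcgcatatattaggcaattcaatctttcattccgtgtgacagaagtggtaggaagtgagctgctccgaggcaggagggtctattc
The search was for the retinoic acid response element of the direct-repeat type with 5 bases between its hexamers, on both strands, where AGGTCA is the best known form of the hexamer and close variants were allowed. This repeat was present in 0.0974% of 32851 windows of the same length, and Rarb was the only one of the 7 genes with it. With 2 or 1 bases between the repeats, the motif was in 0.268% and 0.222% of windows and in 0 of the 14 windows of these genes. The forkhead motif TGTTTAC, also searched on both strands, was in 1 window each of Dhrs3 and Rbp4 and in 3.65% of all windows. A match describes the letters and is not a bound site.

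Aldh1a1 and Aldh1a7 lie next to each other on chromosome 19, with 0 protein-coding genes between them in GRCm38.p6. Their windows are shown because these neighbours share much of the sequence around their start sites. The windows are chr19:20601718-20602017 on the plus strand for Aldh1a1 and chr19:20727507-20727806 on the minus strand for Aldh1a7, and capitals mark their longest shared run, of 65 bases, which lies from 94 to 30 bases before the start.
Aldh1a1: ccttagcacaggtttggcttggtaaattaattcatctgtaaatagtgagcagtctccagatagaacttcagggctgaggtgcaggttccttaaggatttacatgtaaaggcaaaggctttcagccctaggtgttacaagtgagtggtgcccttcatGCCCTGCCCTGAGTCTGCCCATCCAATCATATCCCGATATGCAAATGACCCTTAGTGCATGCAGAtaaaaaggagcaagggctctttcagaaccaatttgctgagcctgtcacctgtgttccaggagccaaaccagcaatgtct
Aldh1a7: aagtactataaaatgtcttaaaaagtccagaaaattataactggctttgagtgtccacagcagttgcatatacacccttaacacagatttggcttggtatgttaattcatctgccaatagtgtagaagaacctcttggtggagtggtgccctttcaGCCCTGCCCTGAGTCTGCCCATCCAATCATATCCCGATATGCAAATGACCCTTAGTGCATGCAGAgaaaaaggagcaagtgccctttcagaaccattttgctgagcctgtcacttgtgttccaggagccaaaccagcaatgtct
Over the last 160 bases of the windows, 152 were identical. The shared run lies outside the transcripts and does not bear on the array's readings; probe sequences were not used here, and cross-hybridisation was not tested.

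Each array gave 35556 log2 values, with medians of 5.89 to 5.95, lower quartiles of 4.42 to 4.50 and upper quartiles of 7.83 to 7.89. Pairs of arrays correlated at 0.972 to 0.993 across genes. On the main axis of variation (45.4% of the variance), the mutant arrays lay at -23.0 to -11.3 and control 1 lay with them at -11.3, while controls 2 and 3 lay apart at 38.4 and 29.4. The targeted gene Foxp1 read 9.24, 9.34 and 9.31 in mutants and 9.42, 9.62 and 9.55 in controls, and Foxp4 read 8.41, 7.77 and 8.49 in mutants and 8.77, 9.01 and 8.95 in controls. Every mutant array thus lay below every control array for both, as for 5.64% of all genes, and neither passed limma's test (adjusted p = 0.444 and 0.339). The differences were -0.23 for Foxp1 and -0.69 for Foxp4, and -0.13 and -0.55 without controls 2 and 3. The probe sets may lie outside the floxed part, so they check the labels only in part. Defining markers of the labelled tissue were present, with means of 10.74 to 11.32 for club cells and 8.71 to 9.62 for ciliated cells, all above the upper quartile. Alveolar type 2 markers (10.81 to 11.41) and cardiac muscle markers (8.43 to 11.27) had means above it as well. Basal cell markers had means of 6.09 to 7.59. The markers therefore do not show that the samples held airway alone. Basal cell, fibroblast, endothelium and macrophage markers had median differences, mutant minus control, of 0.27, 0.17, 0.03 and 0.30, with 0 calls in each list.

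None of the 9 genes passed limma's test for a change, and the genes differed in how tightly that result was bounded. Aldh1a1, Aldh1a2, Aldh1a3 and Dhrs3 differed by less than 0.1 log2 units between group means, with 95% intervals of the difference from -0.40 at the lowest to 0.55 at the highest, both for Aldh1a2. Stra6 had the largest difference of the 9, a mean 2.75-fold lower in mutants, but its control arrays fell far apart. In limma, 0 of the 9 passed at an adjusted p under 0.05, against 0.266% of all genes (53 of 19938). At an unadjusted p under 0.05 there were 2 of the 9, Stra6 and Rbp4, against 10.1% of all genes. The groups did not overlap for 1 of the 9, Rbp4, against 15.0% of all genes, so this count is near the background. The median log2 difference of the 9, mutant minus control, was -0.04, beside 0.02 for all genes tested. Nothing in the labels says that the samples came from separate mice, and the spread behind each p-value may therefore be partly technical.

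**Figure D1:**
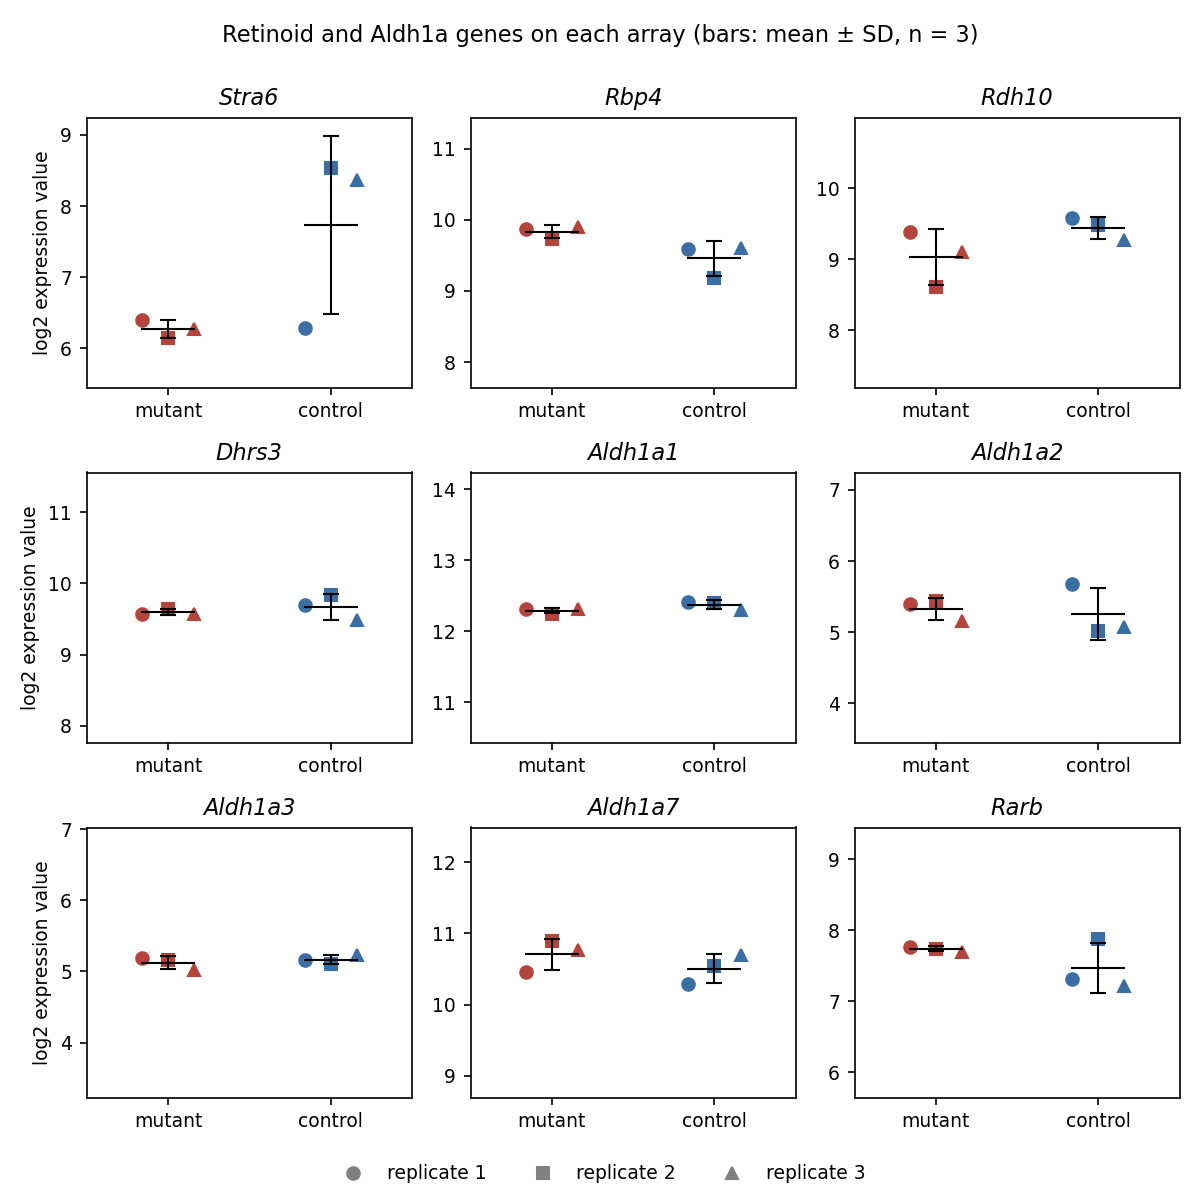
Log2 expression values of the 9 genes on each array, mutant left and control right in each panel, with replicate numbers as symbols and the mean ± SD of 3 arrays as black bars. Every panel spans the same number of log2 units; Stra6 stands out by controls 2 and 3 at 8.54 and 8.37, while control 1 at 6.29 lies among the mutants.

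Retinol uptake was read through Stra6, a membrane receptor for the Rbp4 complex. Stra6 read 6.40, 6.15 and 6.27 in mutant airways and 6.29, 8.54 and 8.37 in control airways. Controls 2 and 3 were thus high, and control 1 lay between the mutant arrays. The group means were 6.27 ± 0.12 in mutants and 7.73 ± 1.26 in controls (SD, n = 3 each), a log2 difference of -1.46 with a 95% interval of -2.84 to -0.08. Limma's adjusted p was 0.475, and the exact permutation test (two-sided) gave p = 0.2, where 3 against 3 arrays cannot go below 0.1. The value depended on which control was used. Without control 1, the difference was -2.18 and passed limma's test (adjusted p = 0.00536), in a fit that called 1.95% of all genes. Without control 1 and mutant 2, it was -2.12 (adjusted p = 0.000874), where 4.83% of all genes were called. Against control 1 alone, with controls 2 and 3 left out, it was -0.01 (adjusted p = 0.999).

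The arrays with high Stra6 also had high lymphoid markers. The mean log2 value of 7 measured B and plasma cell markers was 5.72, 8.22 and 6.05 in mutants and 6.40, 9.98 and 9.75 in controls. For 6 measured T and NK cell markers it was 5.93, 6.79 and 5.86 in mutants and 6.30, 7.92 and 7.83 in controls. Mutant 2, the mutant with the highest mean of both lists, had the lowest Stra6 value of all 6 arrays (6.15). Single markers were uneven on mutant 2. Ms4a1 read 8.63 there and 9.57 on control 2, Mzb1 6.81 and 9.91, and Cd8a 6.04 and 7.08. None of the markers in either list passed limma's test, all 7 B and plasma cell markers and 5 of the 6 T and NK cell markers had a lower mean in mutants, and their part in the Stra6 result was not tested.

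The genes whose profile over the 6 arrays lay nearest to Stra6, after each gene's mean was subtracted, were H1f5, Tnfsf8, Cst7 and Map4k1, at Euclidean distances of 0.42 to 0.51 log2 units. H1f5 encodes a linker histone, Tnfsf8 the CD30 ligand of lymphocytes, Cst7 a cystatin of leukocytes and Map4k1 a kinase of blood cells. Tnfsf8, for example, read 5.13, 5.21 and 5.04 in mutants and 4.96, 7.05 and 6.89 in controls. Their likeness to Stra6 over these arrays is how they were chosen.

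**Figure D2:**
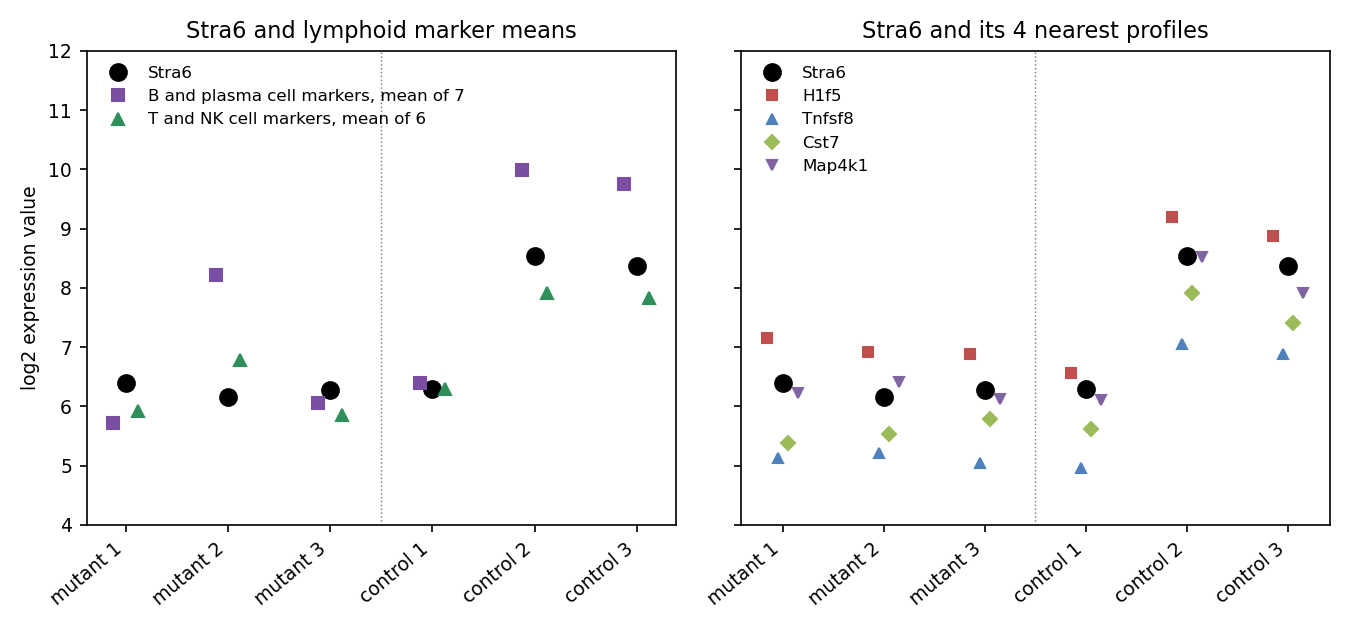
Log2 expression value (vertical axis) on each array (mutants left of the dotted line, controls right of it) of Stra6 beside the mean of lymphoid markers (left panel) and beside its 4 nearest profiles (right panel). Stra6 is high on controls 2 and 3 (8.54 and 8.37); the B and plasma cell mean is also raised on mutant 2 (8.22), where Stra6 is at 6.15.

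Rbp4, the carrier that brings retinol through the blood, was the one gene of the 9 whose groups did not overlap. It read 9.87, 9.73 and 9.90 in mutant airways and 9.59, 9.18 and 9.61 in control airways, with means of 9.84 ± 0.09 in mutants and 9.46 ± 0.24 in controls (SD, n = 3 each). The mutant mean was 1.30-fold higher, a log2 difference of 0.38 (SE 0.14, 95% interval 0.05 to 0.70), and did not pass limma's test (adjusted p = 0.437). Its p in the exact permutation test was 0.1, the lowest that 6 arrays allow. The direction held under all 16 other settings, with differences of 0.24, without control 2, to 0.49 and no call.

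The list means of club cell and alveolar type 2 cell markers also parted the groups. The mean of 8 club cell markers was 11.15 to 11.32 in mutants and 10.74 to 11.00 in controls. Of these markers 5 were higher in mutants without overlap, against 9.33% of all genes, and 1, Upk3a, passed, against 0.266% of all genes. The marker lists were chosen with earlier results of these data known, so these counts are not a test of the list. The mean of 7 alveolar type 2 markers was 11.31 to 11.41 in mutants and 10.81 to 11.03 in controls, where 5 were higher without overlap and none passed. Adipocytes and hepatocytes are the best known sources of Rbp4, and their marker means did not part the groups. The adipocyte mean (8 of 9 listed markers measured) was 6.94 to 8.06 in mutants and 6.62 to 8.94 in controls. The hepatocyte mean (6 of 7) was 5.09 to 5.21 in mutants and 5.09 to 5.28 in controls. These hepatocyte means lay below the array medians of 5.89 to 5.95, and whether they stand above background is not known. The part of any of these cells in the Rbp4 values was not tested. The nearest profiles to Rbp4 were Selenbp1, which encodes a selenium-binding protein, the antisense RNA gene Usp46os2, Pgs1, an enzyme of phospholipid synthesis, and Ybx2, a nucleic acid-binding protein, at distances of 0.13 to 0.15 log2 units.

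Interconversion of retinol and retinal was read through Rdh10 and Dhrs3, which run it in opposite directions. Rdh10, the oxidising enzyme, read 9.38, 8.61 and 9.10 in mutants and 9.58, 9.48 and 9.27 in controls. Mutant 2 was the lowest array and mutant 1 lay among the controls, so the groups overlapped. The difference was -0.42 (SE 0.20, 95% interval -0.91 to 0.07; limma adjusted p = 0.572), and without mutant 2 it was -0.21, which is within the same interval. Ciliated cell markers were also lowest on mutant 2, with a mean over 8 genes of 8.71, against 9.28 to 9.62 on the other 5 arrays, and their part in the Rdh10 value was not tested.

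The nearest profiles to Rdh10 were Kcnmb1, a potassium channel subunit of smooth muscle, Ckb, a creatine kinase, Qsox1, a sulfhydryl oxidase, and Igfbp5, a binding protein of insulin-like growth factors, at distances of 0.13 to 0.22 log2 units. Kcnmb1 read 9.08, 8.27 and 8.78 in mutants and 9.23, 9.17 and 8.81 in controls, with mutant 2 again lowest. The mean of 7 smooth muscle markers was 11.00, 10.55 and 10.83 in mutants and 11.00, 10.62 and 10.61 in controls. Their part in the Rdh10 value was not tested.

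Dhrs3, the reducing enzyme, read 9.57, 9.64 and 9.57 in mutants and 9.70, 9.84 and 9.48 in controls. The mutant arrays lay within the range of the controls. The difference was -0.08, with a 95% interval of -0.34 to 0.19 (limma adjusted p = 0.892).

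Of the enzymes that oxidise retinal, Aldh1a1 had the narrowest interval. It read 12.31, 12.25 and 12.32 in mutants and 12.42, 12.40 and 12.30 in controls, above the upper quartile on all 6 arrays. The means were 12.29 ± 0.04 in mutants and 12.37 ± 0.06 in controls, a difference of -0.08 (SE 0.076, 95% interval -0.26 to 0.10; limma adjusted p = 0.822). Bright probe sets can be compressed, and the highest values on the arrays were 13.4 to 13.6. The driver gene Scgb1a1, a secretory product of club cells, had a difference of 0.25 (limma adjusted p = 0.476), or 0.16 without control 2.

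Aldh1a7, the close neighbour of Aldh1a1, read 10.46, 10.89 and 10.77 in mutants and 10.29, 10.54 and 10.69 in controls. The groups overlapped, with mutant 1 below controls 2 and 3. The difference was 0.20 (SE 0.15, 95% interval -0.17 to 0.57; limma adjusted p = 0.748), and it was 0.09 without control 1, 0.11 without mutant 2 and 0.32 without mutant 1.

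Aldh1a2, which makes retinoic acid in embryonic mesoderm and in mesothelium, read 5.39, 5.44 and 5.15 in mutants and 5.68, 5.01 and 5.07 in controls. Aldh1a3, which makes it in other epithelia, read 5.19, 5.16 and 5.02 in mutants and 5.16, 5.11 and 5.23 in controls. Both lay between the lower quartile and the median on all 6 arrays, and no detection call was used here, so whether these readings stand above background is not known. The differences were 0.07 for Aldh1a2 (95% interval -0.40 to 0.55; limma adjusted p = 0.946) and -0.04 for Aldh1a3 (-0.25 to 0.16; adjusted p = 0.927).

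Aldh1a2 was highest on control 1 and next on mutant 2, and adipocyte and cardiac muscle markers followed that order at the top. The adipocyte mean was 8.06 on mutant 2 and 8.94 on control 1, and the cardiac mean, over 9 genes, was 10.98 on mutant 2 and 11.27 on control 1. Over the other 4 arrays the adipocyte mean was 6.62 to 7.33 and the cardiac mean 8.43 to 9.79. The mean of 7 mesothelium markers was 6.99, 6.21 and 6.11 in mutants and 7.33, 6.77 and 6.54 in controls. Single markers of this list were uneven. Wt1 and Lrrn4 were highest on control 1 (5.39 and 5.85) and next on mutant 2 (5.34 and 5.35). These dim readings lay below the array medians. The other markers of the list did not have this order. Msln was highest on control 2 (10.89) and Upk1b on mutant 1 (9.91). The part of these tissues in the Aldh1a2 values was not tested.

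Rarb, a receptor of retinoic acid and also one of its targets, read 7.77, 7.74 and 7.70 in mutants and 7.32, 7.87 and 7.22 in controls. The mutant arrays were close together and inside the range of the controls, of which control 2 was highest. The means were 7.74 ± 0.04 in mutants and 7.47 ± 0.35 in controls, a difference of 0.27 (SE 0.17, 95% interval -0.14 to 0.68; limma adjusted p = 0.676). Without control 2 the difference was 0.47 (adjusted p = 0.308), and without control 3 it was 0.15 (adjusted p = 0.919).

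**Figure D3:**
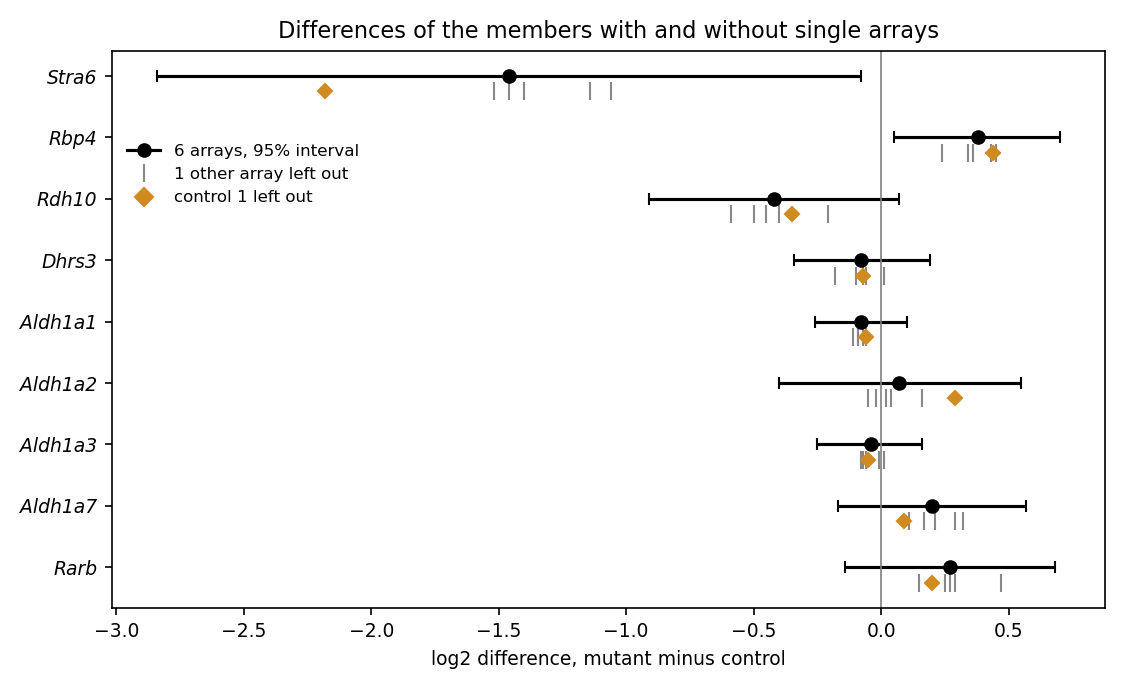
Log2 difference, mutant minus control (horizontal axis), of the 9 genes with its 95% interval on 6 arrays (black), and the difference with each array left out in turn (grey ticks, and an orange diamond for control 1). The intervals of Stra6 (-2.84 to -0.08) and Rbp4 (0.05 to 0.70) lie to one side of 0 before adjustment, and those of the other 7 genes include 0.

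The remaining retinoid pathway gave the same count of 0 calls. Of 58 listed genes in 5 groups, 56 were measured, and limma called 0 at an adjusted p under 0.05. At an unadjusted p under 0.05, 4 were higher and 3 lower, against 5.9% and 4.17% of all genes. Groups did not overlap for 7 higher and 4 lower genes, against 9.33% and 5.64% of all genes. Among the higher ones, Rlbp1 and, named after their values were seen, Sdr16c5 and Rpe65 read 3.63 to 4.47. These readings lay below or near the lower quartiles of the arrays, and whether they stand above background is not known. The median log2 difference over the 56 was 0.01, beside 0.02 for all genes.

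Among genes for uptake, binding and storage (12 of 13 measured, median -0.04), 5 were above 0 (54.6% of all genes were) and 7 below. Fabp5, a carrier of fatty acids that can also bring retinoic acid to the nucleus, read 8.08, 8.62 and 7.89 in mutants and 8.57, 9.30 and 9.10 in controls (difference -0.79, SE 0.25; limma adjusted p = 0.385). Mutant 2 lay above control 1. Fabp5 passed limma's test when these 2 arrays were both left out (difference -1.21, adjusted p = 0.0071), where 4.83% of all genes were called. Retsat, the retinol saturase, differed by -0.44 without overlap (-0.26 without control 1), and Rlbp1, a retinal-binding protein known from the eye, by 0.16 without overlap, and neither passed (adjusted p = 0.460 and 0.582). The Rlbp1 readings of 4.19 to 4.47 lay below or near the lower quartile of the arrays.

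Among 22 genes for interconversion of retinol and retinal (median 0.01), 13 were above 0 and 9 below, and the largest differences of the pathway were here. Dhrs9, a retinol dehydrogenase of the short-chain class, like Rdh10, read 8.78, 7.81 and 8.81 in mutants and 6.59, 7.49 and 6.36 in controls. All mutant arrays lay above all control arrays, with mutant 2 and control 2 nearest to each other. The mutant mean was 3.14-fold higher (difference 1.65, SE 0.38, 95% interval 0.74 to 2.56), and limma's adjusted p was 0.221. It passed limma's test with array weights (difference 2.03, adjusted p = 0.0392), where 291 of 19938 genes were called. It also passed without control 1 and mutant 2 (difference 1.87, limma adjusted p = 0.045), where 4.83% of all genes were called.

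Adh7, an alcohol dehydrogenase of epithelia that accepts retinol, read 8.61, 7.62 and 8.07 in mutants and 10.18, 9.31 and 8.24 in controls. Its groups overlapped, with mutant 1 above control 3 (difference -1.15, SE 0.50; limma adjusted p = 0.519), and without control 1 the difference was -0.68. Dhrs4, a reductase of retinal, differed by 0.25 without overlap (adjusted p = 0.466). Dhrs9 and Adh7, which can both act on retinol, thus stood on opposite sides of 0, and neither passed.

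The genes that break retinoic acid down did not differ in mean by more than 0.03: Cyp26a1 (0.03), Cyp26b1 (0.02) and Cyp26c1 (-0.0029), with adjusted p of 0.951 to 0.995. The sign turned for Cyp26a1 with repeated quantile normalisation (-0.00072) and for Cyp26c1 with median centring (0.03). Cyp26a1 is a classical target of retinoic acid, and its readings of 4.40 to 4.59 lay near the lower quartile of the arrays. Those of Cyp26b1 (5.12 to 5.81) and Cyp26c1 (4.91 to 5.09) lay below the array medians. Whether any of these Cyp26 readings stand above background is not known. The receptor genes other than Rarb had differences of -0.10 for Rara, 0.06 for Rarg, 0.01 for Rxra, -0.14 for Rxrb and -0.43 for Rxrg. Rxrg had groups that did not overlap (4.46, 4.42 and 4.25 in mutants and 5.32, 4.57 and 4.53 in controls). Control 1 was the highest array, and without control 1 the difference was -0.17. Apart from control 1, the Rxrg readings lay near the lower quartile of the arrays, and whether they stand above background is not known. None of the 5 passed (smallest adjusted p = 0.586).

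Of 14 measured genes listed as responsive to retinoic acid (median 0.05), 9 were above 0 and 5 below. Rai14, an actin-associated protein first found as induced by retinoic acid, read 9.15, 9.38 and 9.19 in mutants and 8.61, 8.32 and 8.67 in controls. The groups did not overlap, and the mutant mean was 1.64-fold higher (difference 0.71, SE 0.12, 95% interval 0.41 to 1.01; limma adjusted p = 0.121). Tgm2, the tissue transglutaminase, also had a higher mean in mutants without overlap (difference 0.42, adjusted p = 0.370). Rarres2, which encodes chemerin, had a lower one (difference -0.37, adjusted p = 0.433).

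**Figure D4:**
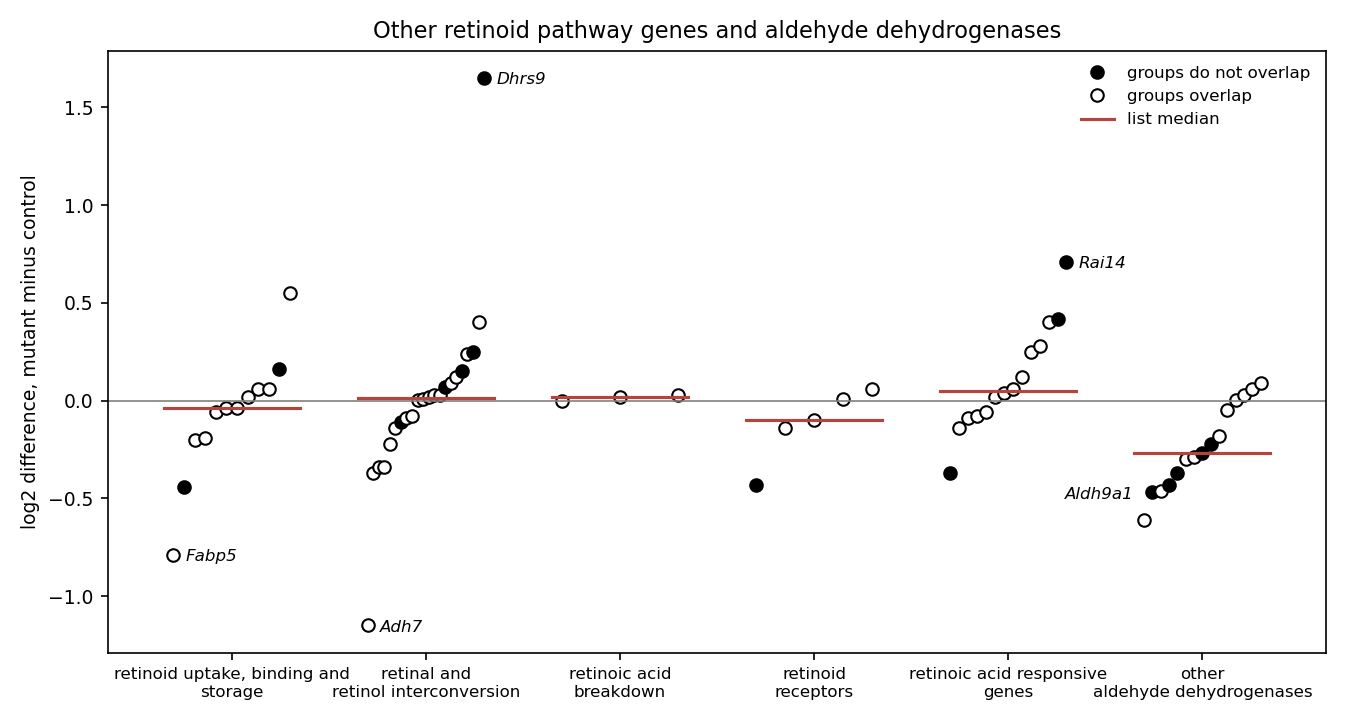
Log2 difference, mutant minus control (vertical axis), of each measured gene in 5 groups of other retinoid genes and in the other aldehyde dehydrogenases, with filled circles where the 3 mutant and 3 control arrays do not overlap and a red line at each list's median. Dhrs9 (1.65) and Adh7 (-1.15) are the ends of the pathway; the aldehyde dehydrogenases have a median of -0.27.

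The aldehyde dehydrogenases outside the Aldh1a genes above mostly had lower means in mutants. All 15 listed genes were measured and limma called 0 of them, with 11 differences below 0 (45.4% of all genes were below 0) and a median of -0.27. At an unadjusted p under 0.05, 5 were lower and 0 higher, against 4.17% of all genes lower. The same 5 had groups that did not overlap, against 5.64% of all genes in that direction. The list's mean level was 7.19 to 7.27 in mutants and 7.35 to 7.64 in controls, with control 1 highest. Its median was -0.19 without control 1 or without mutant 2, -0.17 without both and -0.18 with array weights. The 9 retinoid genes gave 8.40 to 8.48 in mutants and 8.45 to 8.66 in controls, which overlap.

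Aldh9a1, which oxidises aminoaldehydes in carnitine synthesis, read 7.22, 7.29 and 7.43 in mutants and 7.82, 7.86 and 7.68 in controls. The mutant mean was 1.39-fold lower (difference -0.47, SE 0.095; limma adjusted p = 0.179). Aldh7a1, an enzyme of lysine breakdown, differed by -0.27 and Aldh16a1 by -0.22 (adjusted p = 0.420 and 0.429). The other two of the 5 were named after their values were seen. Aldh2, the mitochondrial acetaldehyde dehydrogenase, read 10.26, 9.78 and 10.20 in mutants and 10.56, 10.42 and 10.37 in controls. Aldh6a1, an enzyme of valine breakdown, read 8.20, 8.30 and 8.24 in mutants and 9.00, 8.62 and 8.41 in controls. The lowest Aldh2 reading was that of mutant 2 and the highest Aldh6a1 reading that of control 1, and neither gene passed (adjusted p = 0.471 and 0.439).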

How the data were processed

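RNA of larger proximal airways was measured on 6 arrays, 3 mutant and 3 control, grouped by the labels' titles. The authors deposited log2 values for every probe set; per the submitters' processing notes they used oligo, RMA and limma. Tool versions and the build were not given in the sources used here, and whether all arrays entered one normalisation is not known. The background correction and quantile scaling of RMA can compress dim and bright values. Of 35556 rows, 21789 carried a single symbol, 1621 carried several and 12146 carried none. For the 999 genes with several rows the row with the highest mean was used, leaving 19938 genes. Depth does not apply to arrays: their number limits the precision.

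Groups were compared with limma 3.58.1 (R 4.3.3; lmFit, eBayes) across all genes, two-sided, with Benjamini-Hochberg adjustment over all genes and a threshold of 0.05; intervals of 95% use limma's moderated errors. Exact permutation tests were added for single genes. Simulated data (19938 genes, 3 arrays a group) gave 80% of 2-fold and 98% of 8-fold differences back, with 15 calls among unchanged genes. The simulated noise was independent for each gene and array. The real arrays share variation across genes, with control 1 near the mutants on the main axis. These shares therefore check the fit and do not give its power on these arrays. The members and lists were chosen with earlier results of these data known. Named genes were all 9 members, the targeted and driver genes, list genes that passed, filled up to 3 a list by smallest p (all in lists of up to 5), and the 4 nearest profiles of the 3 members with the widest range. Listed genes without a row of their own were not analysed here. Other settings were array weights, an intensity trend, the replicate number as a block, a second quantile normalisation, centring on medians, dropping the lowest 40% of genes by mean, averaging a gene's rows, robust eBayes, a threshold of 0.1, leaving out each array, control 1 with mutant 2, and, added after seeing the data, controls 2 and 3. Python 3.11.15, pandas 2.3.3 and matplotlib 3.10.9 served for tables and figures. No batch was tested, since no scan date was at hand.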

Additional observations from a re-analysis of the deposited data

How the results depend on the processing

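The count of 0 called genes among the 9 held under the other settings tried and became 1, Stra6, when control 1 was left out (0 to 1 over the fits that leave out 1 array) and when control 1 and mutant 2 were both left out (1). The count over all genes was 53 and moved to 0 with the replicate block, 291 with array weights, 82 with an intensity trend, 117 at a threshold of 0.1, 963 without control 1 and mutant 2, 0 without controls 2 and 3, and 9 to 388 with 1 array left out. The 388 calls came without control 1, and leaving out any other array gave 9 to 24. Among the other retinoid genes (56 measured), array weights called 1, Dhrs9, against 291 of all 19938 genes. Without control 1 and mutant 2, 3 were called, Dhrs9, Fabp5 and Rdh12 (named after its values were seen), against 4.83% of all genes. That count of 3 among 56 is near the background share. The other aldehyde dehydrogenases kept 0 calls in every setting. The labels name no pairing of the arrays. Deviations from the group means correlated at 0.14, -0.09 and -0.04 for equal replicate numbers, and at -0.20 to 0.18 for unequal ones. With 3 arrays a group these values cannot decide whether equal numbers were paired. The replicate block gave 0 calls among the 9, the other retinoid genes and the other aldehyde dehydrogenases. Foxp4 passed without control 1 and mutant 2 (-0.53, adjusted p = 0.0478). The median of the other retinoid genes was -0.03 to 0.05 with 1 array left out, 0.05 with median centring, -0.02 where the lowest 40% of genes were left out and -0.07 without controls 2 and 3.

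Signs turned for differences near 0, none of them called. With 1 array left out, Dhrs3 ranged from -0.18 to 0.01, Aldh1a2 from -0.05 to 0.29, Aldh1a3 from -0.08 to 0.01, Cyp26a1 from -0.02 to 0.08, Cyp26b1 from -0.18 to 0.17, Cyp26c1 from -0.04 to 0.06, Rara from -0.18 to 0.06, Rarg from -0.07 to 0.18 and Rxra from -0.05 to 0.09. Without controls 2 and 3, which leaves 1 control assumed to vary like the mutants, Aldh1a2 was -0.35, Cyp26a1 -0.07, Cyp26b1 -0.07, Cyp26c1 0.07, Rara 0.06, Rarg -0.07 and Rxra -0.14. Without control 1 and mutant 2, Aldh1a7 was -0.0035 and Cyp26c1 0.02. Cyp26c1 was 0.03 with median centring and 0.01 with array weights, and Cyp26a1 was -0.00072 with repeated quantile normalisation. The cause was not tested. Aldh1a2 and Aldh1a3 have no value where the lowest 40% of genes were left out.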

Other observations

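A pair of further genes, named after their values were seen, were uneven within the groups. Rbp7, a retinol carrier of fat and blood vessels, read 6.91, 8.19 and 6.51 in mutants and 7.34, 6.35 and 6.28 in controls. Aldh1b1, a mitochondrial aldehyde dehydrogenase, read 5.86, 6.12 and 5.38 in mutants and 7.48, 5.60 and 6.10 in controls. Mutant 2 and control 1, the highest arrays of their groups for both genes, were also the arrays with the highest marker means for adipocytes (8.06 and 8.94), cardiac muscle (10.98 and 11.27) and endothelium (9.43 and 9.32). The part of these tissues in the values was not tested. Neither gene passed limma's test (adjusted p = 0.794 for Rbp7 and 0.753 for Aldh1b1).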
